A study of Homo sapiens with 6 samples.

Results

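The genes described here build the kinetochore, the protein assembly that holds spindle microtubules on each centromere, and the spindle checkpoint that waits for that attachment. The 36 genes were taken by name from the 58825 genes of the deposited gene table, from a list made with earlier results of these data known. They were grouped by textbook role into 14 inner kinetochore, 11 outer kinetochore, 5 corona and 6 checkpoint genes. All 36 passed the filter on low values that left 12787 genes for testing. RNA came from PC9, a human lung adenocarcinoma line with an activating EGFR mutation. The cells overexpressed FOXM1 with the G allele of rs3742076 in 3 libraries, and with the A allele of rs3742076 in the other 3. Every library came from cells given 100 nM gefitinib, an EGFR inhibitor, for 24 h, so libraries without the drug or without overexpressed FOXM1 were not analysed here. The labels name neither the vector, nor whether the cells were a clone or a pool, nor whether replicates were separate cultures, so the p-values speak to the spread among these 6 libraries, and that spread could be technical.

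As background, the inner kinetochore sits on chromatin that carries the histone variant CENP-A and is formed largely by the CENP proteins. The outer kinetochore, with the NDC80, MIS12 and KNL1 complexes, binds microtubules. The fibrous corona assembles outside it in early mitosis, and unattached kinetochores recruit the checkpoint kinases and MAD proteins that hold back the anaphase-promoting complex. FOXM1 is a transcription factor that acts in late cell cycle and is known to bind, together with the MuvB complex, the promoters of many mitotic genes. The series sets G against A cells under gefitinib.

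Levels are in FPKM, fragments per kilobase of transcript scaled to the mapped fragments of a library, as the authors deposited them. The libraries held an estimated 19765229 to 23289050 read pairs each, and 12451 to 12858 genes reached 1 FPKM. All 6 epithelial markers were expressed, with EPCAM at 109 to 120 FPKM, and KRT7, KRT8 and KRT18 had G wholly below A, as 9.57% of all tested genes did, while EPCAM, KRT19 and CDH1 overlapped. Of 12 markers of blood, endothelial and fibroblast cells, CD68 and COL1A1 passed the filter, DCN had no estimate in any library, and the 12 without CD68 summed to 3.33, 3.79 and 3.40 FPKM in G libraries and 3.17, 2.70 and 3.43 FPKM in A libraries. FOXM1 itself had 14.6, 14.3 and 14.0 FPKM in G libraries, against 25.5, 10.5 and 10.1 FPKM in A libraries. Its log2 change was 0.03 (95% interval -0.77 to 0.83, limma adjusted p = 0.969), while the linear means, 14.3 FPKM in G and 15.3 FPKM in A, stand in the other order. Without A replicate 1 the FOXM1 log2 change was 0.44 (95% interval 0.30 to 0.59, limma adjusted p = 0.0871). The gene values do not separate the introduced from the endogenous transcript.

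No kinetochore or checkpoint gene passed the test between the alleles. Log2 changes are G minus A of log2(FPKM + 1), tested with limma over all 12787 genes with Benjamini-Hochberg adjustment. Adjusted p-values of the 36 genes ran from 0.149 for CENPF to 0.982 for CENPO, with a threshold of 0.05 that 14 genes of the whole table passed (0.109%). On this scale the changes lay between -0.50 for SPC24 and 0.38 for KNL1, with a median of 0.04 against 0.02 over all tested genes. The scale understates the change of low genes. The authors' deposited log2 ratio of means was 0.59 for KNL1 and -0.49 for SPC24. Higher mean values in G were seen for 22 of the 36 genes (61.1%), against 55.1% of all tested genes. At an unadjusted p under 0.05, 8 of the 36 were higher in G and 0 were lower, where 10.5% of all tested genes were higher and 6.82% were lower. With every library scaled to an equal FPKM sum, 27 of the 36 were positive, against 73.9% of all tested genes, and 13 were higher at an unadjusted p under 0.05, against 22.3%. On the deposited scale the 8 were CENPF, CENPE, KNTC1, KNL1, DSN1, CENPI, TTK and BUB1. In bulk RNA, a different share of cells in mitosis and a different amount of RNA per mitotic cell cannot be told apart.

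Values of the 3 G libraries lay wholly above those of the 3 A libraries for 8 genes: CENPF, CENPE, KNTC1, KNL1, DSN1, TTK, BUB1 and CENPC. Complete separation in that direction was found for 15.4% of all tested genes. Complete separation with G below A was found for NSL1 alone, and for 9.57% of all tested genes. By role, the median log2 change was 0.29 for the 5 corona genes, 0.14 for the 6 checkpoint genes, 0.08 for the 11 outer kinetochore genes and -0.02 for the 14 inner kinetochore genes. The median length of the most abundant transcript fell in the same order, at 6974, 3243.5, 2441 and 1689.5 bases. The median changes describe groups of unequal size and were not tested against each other. Whether length accounts for their order was not tested. Separation with G above A occurred in 3 of the 5 corona genes, 2 of the 6 checkpoint genes, 2 of the 11 outer kinetochore genes and 1 of the 14 inner kinetochore genes.

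**Figure D1:**
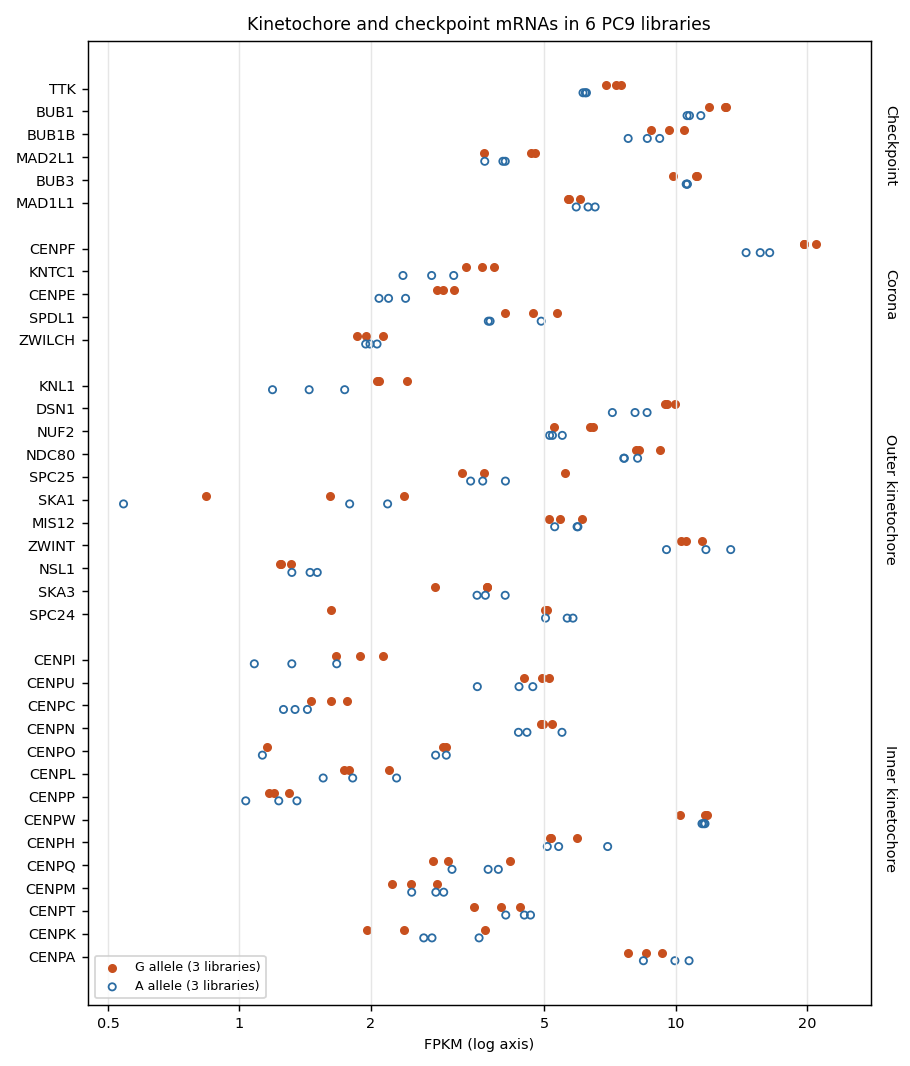
FPKM (log axis) of the 36 genes in each library, by role and ordered within a role by the log2 change; filled points are the 3 G libraries and open points the 3 A libraries. The G points of CENPF, CENPE, KNTC1 and KNL1 all lie right of their A points, while most inner kinetochore genes overlap and SPC24, SKA1 and CENPO each have libraries far from the rest of their group.

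The sequence around the start of several of these genes carries the letters through which late cell cycle genes are known to be controlled. The RefSeq promoter table (GRCh38.p14, 250 bases before to 50 after the start) listed 29 of the 36 genes; BUB3, CENPH, CENPL, CENPM, KNL1, KNTC1 and TTK were not listed. The cell cycle genes homology region (CHR), searched as TTTGAA or TTCGAA on either strand, occurred in 16 of the 29 genes (55.2%) and in 19.5% of the 27305 symbols of the table. A CCAAT box (CCAAT on either strand) occurred in 17 of the 29 (58.6%) and in 39.7% of all symbols. Both occurred in 10 of the 29 (34.5%) and in 9.02% of all symbols. The forkhead core TAAACA, the kind of site FOXM1 binds by itself, was found in 4 of the 29 (13.8%; BUB1B, CENPE, CENPP and CENPQ) and in 14.7% of all symbols. Of the 34 listed starts of the 29 genes, 31 lay within 1000 bases of the start of the gene's most abundant transcript. The CENPP matches belong to a further listed start that lies 274304 bases inside the gene, so they are not upstream of its most abundant transcript, and the listed starts of CENPK and CENPT lie 8203 and 13775 bases before that of their most abundant transcript. The E2F motif TTTCCCGC was found in CENPA and MIS12, 6.9% of the 29, against 1.98% of all symbols. In 15 of the 16 genes with a CHR, at least 1 match began within 50 bases of the start. Positions were not computed for the other symbols, so this count has no background share beside it. TTCGAA reads the same on both strands, and a match is a run of letters, not a shown binding site.

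The 120 bases before the start and the first 30 from it are printed for 7 genes, 5′ to 3′ on the gene's strand. CHR and CCAAT matches are in capitals. The forkhead match of BUB1B, at -124, begins before its stretch and runs into it, and is left in lower case. CENPF and BUB1 are shown as genes with separated groups, BUB1B, NDC80, SPC25 and CENPA as genes with a CHR at the start whose groups overlapped, and DSN1 as a gene with separated groups and none of these matches.
CENPF, chr1:214603075-214603224, plus strand: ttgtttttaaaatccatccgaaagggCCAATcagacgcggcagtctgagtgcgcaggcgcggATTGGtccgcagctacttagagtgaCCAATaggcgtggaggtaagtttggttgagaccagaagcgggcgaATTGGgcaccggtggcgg
BUB1, chr2:110678034-110678183, minus strand: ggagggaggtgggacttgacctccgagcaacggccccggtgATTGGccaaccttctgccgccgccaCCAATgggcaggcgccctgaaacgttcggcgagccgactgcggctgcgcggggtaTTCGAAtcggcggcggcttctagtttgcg
BUB1B, chr15:40160949-40161098, plus strand: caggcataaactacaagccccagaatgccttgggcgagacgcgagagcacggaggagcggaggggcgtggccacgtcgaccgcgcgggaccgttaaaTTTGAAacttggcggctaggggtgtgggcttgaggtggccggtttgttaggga
NDC80, chr18:2571437-2571586, plus strand: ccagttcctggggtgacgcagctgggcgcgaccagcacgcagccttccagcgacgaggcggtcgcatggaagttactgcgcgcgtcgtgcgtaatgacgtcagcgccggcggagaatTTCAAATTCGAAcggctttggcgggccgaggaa
SPC25, chr2:168890401-168890550, minus strand: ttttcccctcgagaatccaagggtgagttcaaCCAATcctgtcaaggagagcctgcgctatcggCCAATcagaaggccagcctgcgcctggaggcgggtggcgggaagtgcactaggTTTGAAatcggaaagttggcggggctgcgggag
CENPA, chr2:26785936-26786085, plus strand: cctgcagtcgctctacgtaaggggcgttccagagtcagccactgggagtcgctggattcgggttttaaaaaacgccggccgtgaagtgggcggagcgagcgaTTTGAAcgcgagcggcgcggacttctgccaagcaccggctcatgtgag
DSN1, chr20:36773734-36773883, minus strand: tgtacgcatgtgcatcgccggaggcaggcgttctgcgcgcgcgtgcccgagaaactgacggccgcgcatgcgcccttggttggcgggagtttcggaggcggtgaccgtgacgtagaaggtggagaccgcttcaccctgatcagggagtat

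In CENPF the capitals are 4 CCAAT boxes, and its CHR begins at position 41, past the printed stretch (the start base is 1, and the base before it -1). BUB1 has CCAAT boxes at -79 and -54 and a CHR at 2. In NDC80 the capitals hold a CHR at -3 and another right after it at 4, and in SPC25 boxes at -88 and -56 precede a CHR at -3. Genes with a CHR had a median log2 change of 0.11, with 12 of 16 positive and 3 separated with G above A. Genes without a CHR had a median of -0.04, with 5 of 13 positive and 2 separated with G above A. For the CCAAT box the order was the other way, with a median of 0.01 for the 17 genes with it (9 positive) and 0.10 for the 12 without it (8 positive), and CENPA and MIS12, the genes with the E2F motif, had a median of -0.10 against 0.08 for the others. These differences between genes with and without a motif were not tested. No match of any of the 4 motifs was found in CENPI, CENPT, DSN1, MAD1L1 and NSL1, of which CENPI and DSN1 were higher in G at an unadjusted p under 0.05 and NSL1 was separated the other way.

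**Figure D2:**
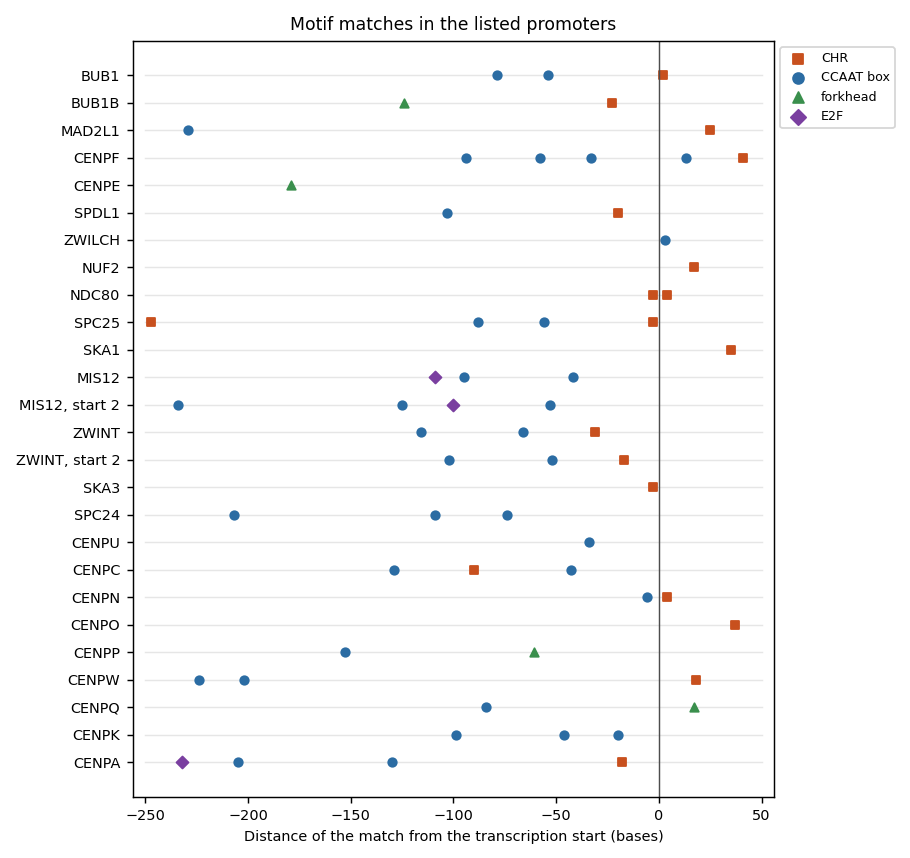
Positions of CHR, CCAAT box, forkhead and E2F matches relative to the transcription start (bases) in the listed promoters that hold at least 1 match; a second row marks a second listed start. CHR matches cluster near the start, with that of CENPC at -90 and the earlier of a pair in SPC25 at -247, while CCAAT boxes mostly lie before it. The CENPP row is the listed start inside the gene.

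Among the corona genes, which extend the kinetochore and carry motor proteins, CENPF, CENPE and KNTC1 had the clearest separation. CENPF, a large coiled-coil protein that binds dynein regulators, is encoded on chromosome 1 (214603195 to 214664588, plus strand, GRCh38). It was the most abundant of the 36 and had 21.0, 19.7 and 19.7 FPKM in G libraries, against 16.4, 14.5 and 15.6 FPKM in A libraries. All G libraries were above all A libraries, and the gap between the groups was larger than the range within either. Means were 20.1 ± 0.76 FPKM in G and 15.5 ± 0.97 FPKM in A (SD, n = 3 each). The log2 change was 0.35 (SE 0.06, 95% interval 0.20 to 0.51, limma unadjusted p = 0.0013, adjusted p = 0.149). A single transcript, ENST00000366955, held 98.7% to 99.6% of the estimated read pairs of CENPF, which numbered 3608 to 5345 per library.

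CENPE, a kinesin that moves chromosomes to the spindle equator, had 3.10, 2.84 and 2.93 FPKM in G libraries, against 2.40, 2.20 and 2.09 FPKM in A libraries. The groups were separate (log2 change 0.29, SE 0.07, limma adjusted p = 0.185). KNTC1, the ROD subunit of the RZZ complex that brings dynein and MAD1 to the corona, had 3.83, 3.60 and 3.31 FPKM in G libraries, against 3.10, 2.37 and 2.76 FPKM in A libraries. Here, too, the groups were separate (log2 change 0.29, SE 0.10, limma adjusted p = 0.222). ZWILCH, another subunit of RZZ, did not show this: it had 1.95, 2.13 and 1.86 FPKM in G libraries and 1.95, 1.99 and 2.07 FPKM in A libraries. For ZWILCH the change was -0.01 on the log2 scale (95% interval -0.19 to 0.17). SPDL1, the adaptor that links RZZ to dynein, had 4.71, 4.07 and 5.34 FPKM in G libraries and 3.72, 3.76 and 4.92 FPKM in A libraries. A replicate 3 lay inside the G range (log2 change 0.15, 95% interval -0.15 to 0.46).

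Of the checkpoint genes, the kinases TTK and BUB1 were separated by allele and the others overlapped. TTK, also called MPS1, starts checkpoint signalling at unattached kinetochores. It had 7.51, 7.32 and 6.94 FPKM in G libraries, against 6.14, 6.21 and 6.25 FPKM in A libraries (log2 change 0.20, SE 0.06, limma adjusted p = 0.203). BUB1, which phosphorylates histone H2A at the centromere and recruits the other BUB and MAD proteins, had 13.0, 12.0 and 13.0 FPKM in G libraries, against 10.8, 10.6 and 11.4 FPKM in A libraries. Its log2 change was 0.19 (SE 0.06, limma adjusted p = 0.212). The transcript that took the largest share of BUB1's estimated read pairs (55.0% to 60.9%), ENST00000466333, is annotated as a retained intron and was 18.4, 16.3 and 19.2 FPKM in G libraries, against 14.4, 14.2 and 15.2 FPKM in A libraries. The protein-coding ENST00000302759 of BUB1 had 8.30, 5.54 and 8.22 FPKM in G libraries and 7.92, 7.62 and 8.61 FPKM in A libraries, so the separation of the gene value was not seen in that transcript.

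BUB1B encodes BUBR1, a part of the mitotic checkpoint complex that inhibits CDC20. It had 8.80, 9.68 and 10.5 FPKM in G libraries and 9.20, 7.79 and 8.61 FPKM in A libraries, which overlapped (log2 change 0.16, 95% interval -0.05 to 0.37). MAD2L1, whose product MAD2 binds CDC20, had 4.67, 3.64 and 4.76 FPKM in G libraries and 3.65, 4.07 and 4.02 FPKM in A libraries. G replicate 2 was the lowest of the 6 for MAD2L1, and the other G libraries were the highest (log2 change 0.12, 95% interval -0.13 to 0.37). BUB3, a WD40 protein that carries BUB1 and BUBR1 to KNL1, had 11.1, 9.88 and 11.2 FPKM in G libraries and 10.6, 10.6 and 10.6 FPKM in A libraries. MAD1L1, the corona anchor of MAD2, was the checkpoint gene with a negative log2 change (-0.09, 95% interval -0.25 to 0.06), with 5.66, 5.69 and 6.03 FPKM in G libraries and 6.30, 6.54 and 5.92 FPKM in A libraries.

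Outer kinetochore genes differed in direction, with 6 of 11 positive. KNL1, the scaffold on which BUB1 and BUB3 assemble, had 2.42, 2.07 and 2.08 FPKM in G libraries, against 1.74, 1.19 and 1.45 FPKM in A libraries. Its log2 change of 0.38 was the largest positive one among the 36 genes (SE 0.11, 95% interval 0.12 to 0.64, limma adjusted p = 0.20). DSN1, a subunit of the MIS12 complex that joins inner to outer kinetochore, had 10.0, 9.48 and 9.58 FPKM in G libraries, against 7.16, 8.07 and 8.61 FPKM in A libraries (log2 change 0.26, SE 0.08, limma adjusted p = 0.203). Both genes had separate groups with G above A, which the partners of DSN1 in its complex that are among the 36 genes, MIS12 and NSL1, did not have. MIS12 had 5.13, 5.45 and 6.09 FPKM in G libraries and 5.28, 5.97 and 5.95 FPKM in A libraries (log2 change -0.04, 95% interval -0.24 to 0.16). NSL1 had 1.24, 1.31 and 1.24 FPKM in G libraries, against 1.51, 1.45 and 1.32 FPKM in A libraries (log2 change -0.10, SE 0.08, limma adjusted p = 0.541). Its highest G library and its lowest A library were nearly level.

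The 4 subunits of the NDC80 complex, the main microtubule coupler, had overlapping groups. NDC80 had 9.20, 8.13 and 8.27 FPKM in G libraries and 7.63, 7.61 and 8.18 FPKM in A libraries (log2 change 0.11, 95% interval -0.05 to 0.28). NUF2, its dimer partner, had 6.37, 5.26 and 6.48 FPKM in G libraries and 5.14, 5.50 and 5.22 FPKM in A libraries (log2 change 0.16, 95% interval -0.05 to 0.37). In each of these genes the lowest G library fell within the A range. SPC25 had 5.57, 3.63 and 3.24 FPKM in G libraries and 3.61, 4.07 and 3.39 FPKM in A libraries, so that G replicates 1 and 3 were the highest and the lowest of the 6. Its partner SPC24 had 1.62, 5.02 and 5.08 FPKM in G libraries and 5.03, 5.64 and 5.82 FPKM in A libraries. The SPC24 log2 change of -0.50 (SE 0.33, 95% interval -1.29 to 0.29) was the most negative among the 36, and it was -0.10 without G replicate 1. ZWINT, a KNL1-binding protein, and SKA3 of the microtubule-tracking SKA complex also overlapped, with log2 changes of -0.08 (95% interval -0.37 to 0.21) and -0.12 (95% interval -0.37 to 0.14).

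Inner kinetochore genes were centred near 0, with 7 of 14 positive. CENPA, the histone H3 variant that marks the centromere, had 7.78, 8.54 and 9.32 FPKM in G libraries and 8.44, 9.97 and 10.7 FPKM in A libraries. The groups overlapped (log2 change -0.16, SE 0.10, 95% interval -0.42 to 0.09, limma adjusted p = 0.454). CENPA overlaps SLC35F6 on the same strand, and its most abundant listed transcript is annotated as a processed transcript, so this value is uncertain. CENPC, which binds CENP-A nucleosomes and the MIS12 complex, had 1.76, 1.62 and 1.46 FPKM in G libraries, against 1.43, 1.34 and 1.26 FPKM in A libraries. Its groups were separate, but by little against their range (log2 change 0.16, SE 0.08, limma adjusted p = 0.393). CENPT, the other link from centromeric chromatin to NDC80, had 3.45, 4.41 and 3.98 FPKM in G libraries and 4.65, 4.50 and 4.08 FPKM in A libraries (log2 change -0.13, 95% interval -0.36 to 0.09).

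CENPI, a scaffold subunit of the CENP network, had 1.67, 1.89 and 2.13 FPKM in G libraries and 1.32, 1.08 and 1.67 FPKM in A libraries. G replicate 1 and A replicate 3 were level, and the log2 change was 0.30 (SE 0.12, limma unadjusted p = 0.044, adjusted p = 0.276). CENPH and CENPK, which form a subcomplex with CENPI and CENPM, had log2 changes of -0.08 and -0.14, and CENPM -0.09, with 95% intervals of -0.36 to 0.21, -0.58 to 0.30 and -0.32 to 0.14. CENPW, the histone-fold partner of CENPT and the most abundant inner kinetochore gene, had 10.2, 11.7 and 11.8 FPKM in G libraries and 11.7, 11.6 and 11.5 FPKM in A libraries. The other 6, CENPL, CENPN, CENPO, CENPP, CENPQ and CENPU, had log2 changes of 0.01, 0.06, 0.02, 0.01, -0.09 and 0.18, with all groups overlapping and adjusted p-values from 0.430 to 0.982.

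**Figure D3:**
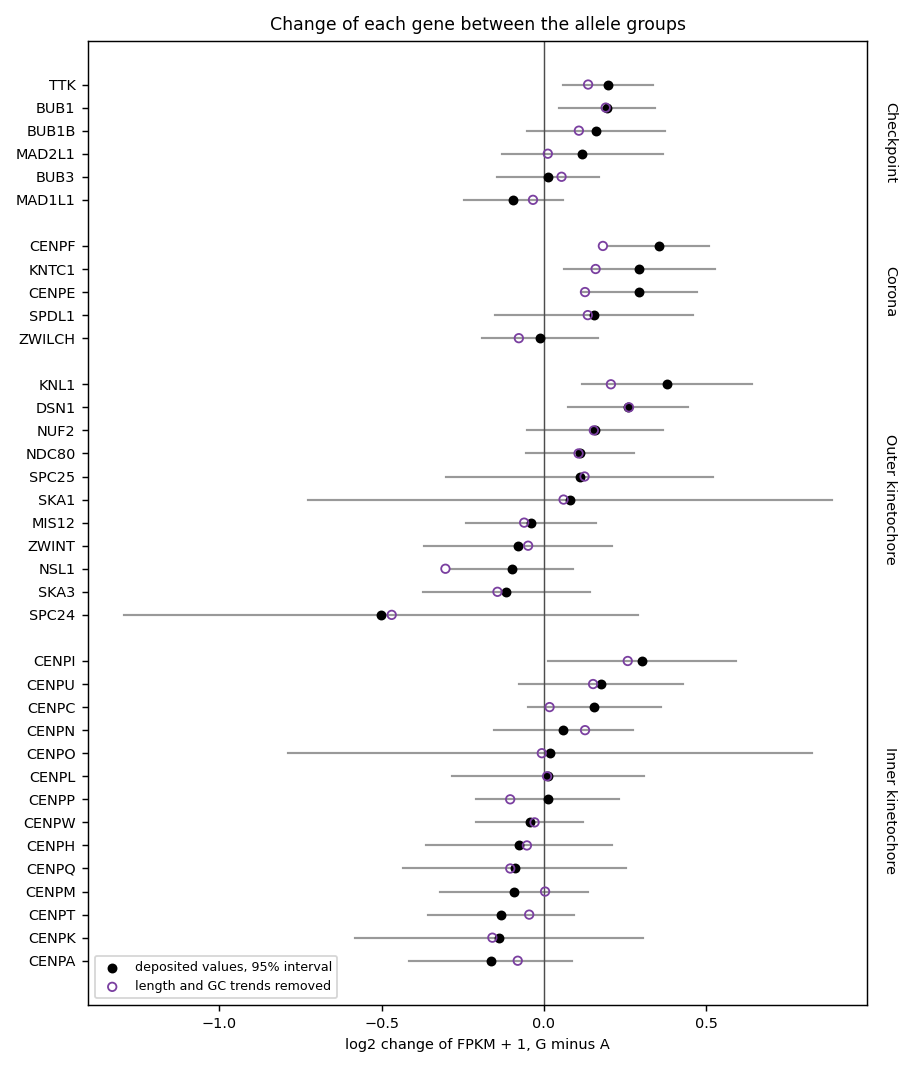
Log2 change of FPKM + 1 (G minus A) of the 36 genes by role: filled points with 95% intervals are from the deposited values, and open points are after trends over transcript length and GC content were removed from each library. The open points of the long genes CENPF, CENPE, KNTC1 and KNL1 lie closer to 0 than the filled ones, and that of NSL1 lies further below 0.

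Over the whole table the change between the alleles followed transcript length, and the 36 genes have to be read against it. With the tested genes ranked by the length of their most abundant transcript and cut into 5 classes of equal size, shortest to longest, the median log2 change was -0.06, -0.04, 0.00, 0.05 and 0.13, and the share with a positive change was 39.4%, 38.1%, 50.8%, 65.1% and 82.2%. The longest class (4768 bases or more) held 8 of the 36, namely CENPC, CENPE, CENPF, CENPP, KNL1, KNTC1, MAD2L1 and NSL1, with a median of 0.22. Of these 8, 5 had G wholly above A, where 34.1% of all tested genes of that class did, and 4 were higher at an unadjusted p under 0.05, where 24.6% of that class were. The middle class (2035 to 3090 bases) held 11 of the 36, with a median of 0.08, and 2 of them, BUB1 and DSN1, had G wholly above A, where 11.5% of that class did. The 3 genes of the shortest class, CENPA, CENPM and CENPW, were all negative, CENPW not with equal FPKM sums (0.06).

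With trends over transcript length and GC content removed from each library, 21 of the 36 genes were positive with a median log2 change of 0.01. At an unadjusted p under 0.05, 4 were then higher in G, namely CENPF, BUB1, DSN1 and KNL1, where 8.63% of the genes tested were, and NSL1 was lower, where 5.88% were. The log2 change after removal was 0.18 for CENPF (unadjusted p = 0.0043), 0.21 for KNL1 (unadjusted p = 0.039), 0.13 for CENPE and 0.16 for KNTC1. BUB1 (0.19, unadjusted p = 0.0072) and DSN1 (0.26, unadjusted p = 0.011), of middle length by their most abundant transcript, kept nearly the same value. The BUB1 length, 2501 bases, is that of the retained-intron ENST00000466333. The protein-coding ENST00000302759 of BUB1 has 3507 bases. That length falls in the class of 3092 to 4766 bases, where 18.6% of genes had G wholly above A. The DSN1 length is that of ENST00000426836, which held 0.55% to 72.1% of its estimated read pairs. That transcript had 7.82, 7.67 and 0.30 FPKM in G libraries and 0.04, 2.28 and 5.59 FPKM in A libraries. The separation of the DSN1 gene value was thus not seen in it. CENPC went to 0.02, and NSL1, with a transcript of 13115 bases, to -0.30 (unadjusted p = 0.0076). Medians after removal were 0.14 for the corona, 0.08 for checkpoint genes, 0.06 for the outer kinetochore and -0.02 for the inner kinetochore. None of the 36 passed the adjusted threshold in this fit either, and whether length is the cause of any single difference was not tested.

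**Figure D4:**
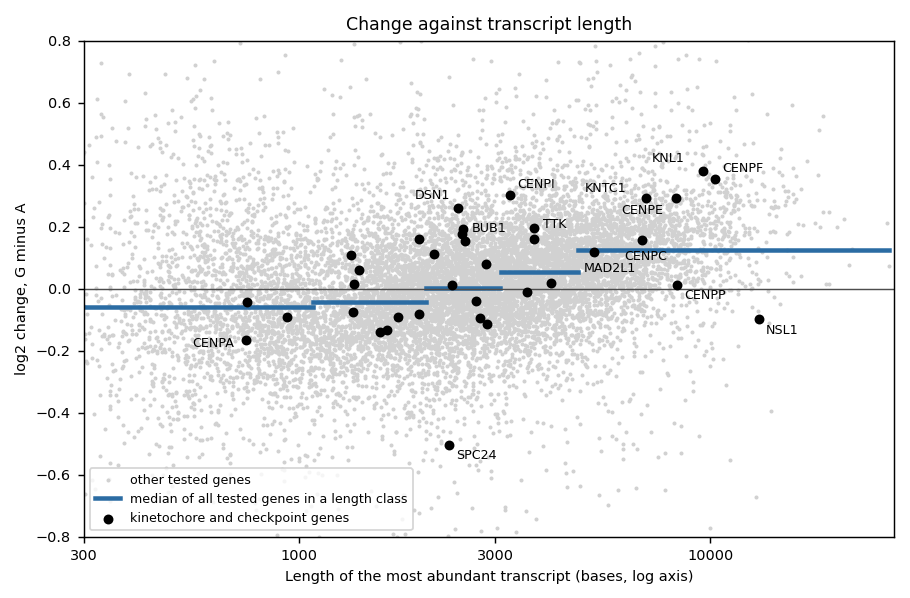
Log2 change (G minus A) against the length of the most abundant transcript (bases, log axis) for the 36 genes (black) and the other tested genes (grey), with bars at the median of each of 5 equal classes by length; genes shorter than 300 bases or beyond 0.8 in either direction are not drawn. The bars climb from -0.06 to 0.13, and KNL1, CENPF, KNTC1 and CENPE lie above the bar of the longest class.

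In 5 of the 36 genes, CENPK, CENPO, SPC24, SPC25 and SKA1, the coefficient of variation within a group exceeded 25%. For SPC24 the main transcript ENST00000592540 (2315 bases) had no estimate in G replicate 1, against 4.97 and 5.09 FPKM in the other G libraries and 6.04, 5.57 and 6.51 FPKM in A libraries. The SKA1 transcript ENST00000285116 had 0.05, 2.31 and 1.34 FPKM in G libraries and 1.78, 0.00 and 2.16 FPKM in A libraries. The gene values of SKA1, 0.84, 2.38 and 1.61 FPKM in G libraries and 1.79, 0.54 and 2.19 FPKM in A libraries, varied with it. CENPO had 2.93, 1.16 and 2.97 FPKM in G libraries and 2.82, 2.98 and 1.13 FPKM in A libraries, so that 1 library of each group was low. For SPC24, SKA1 and CENPO single libraries lay far from the rest of their group, and the intervals were wide (-0.79 to 0.83 for CENPO).

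**Figure D5:**
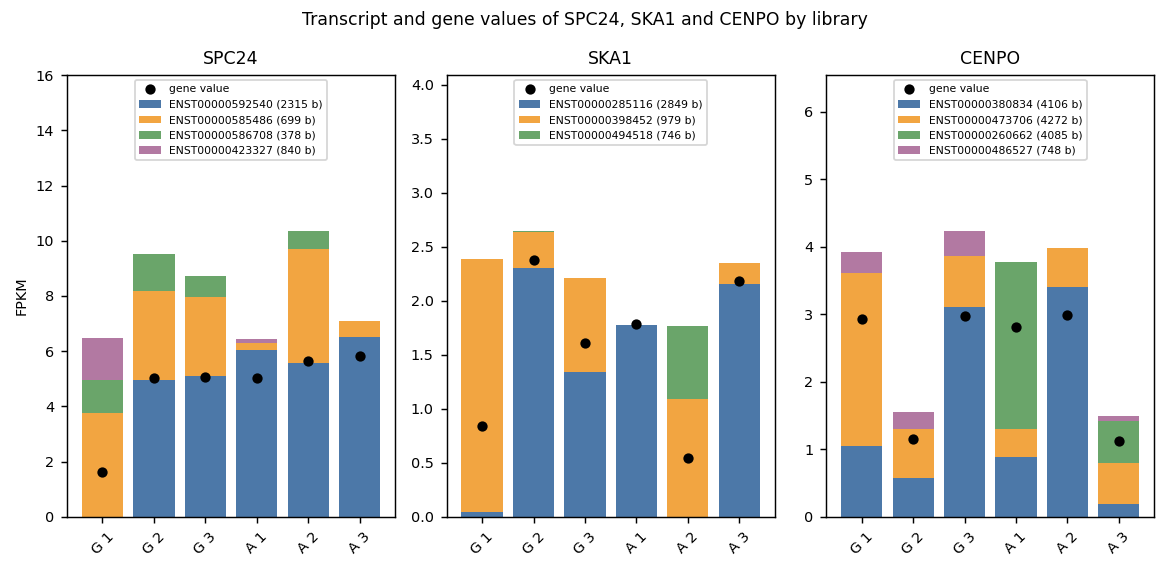
FPKM of the most abundant transcripts (stacked bars) and of the gene (points) of SPC24, SKA1 and CENPO in each library, G libraries left and A libraries right. Each transcript value is per its own length, so the bars need not sum to the gene value. The main SPC24 transcript is absent in G replicate 1, the main SKA1 transcript is near 0 in G replicate 1 and A replicate 2, and the CENPO gene value is low in G replicate 2 and A replicate 3.

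At the transcript level, 72 of the 335 listed transcripts of the 36 genes passed the filter. None of the 72 was called (limma, adjusted p under 0.05), where 0.147% of all tested transcripts were, and 6 were higher and 0 lower in G at an unadjusted p under 0.05, where 4.43% of all tested transcripts were higher and 3.38% were lower. The smallest p-values were those of a minor CENPT transcript and a CENPH transcript annotated for nonsense-mediated decay. CENPT ENST00000626059 had 2.33, 2.04 and 2.41 FPKM in G libraries, against 0.32 FPKM in A replicate 3 and no estimate in the other A libraries (adjusted p = 0.0852). CENPH ENST00000513575 had 1.22, 1.61 and 1.29 FPKM in G libraries and no estimate in any A library (adjusted p = 0.0863). Both transcripts reached 1 FPKM in the 3 G libraries alone and passed the filter only through them. Their direction was therefore fixed by the filter. Their p-values are no support for a difference, and both are among the 6 counted as higher in G. The gene values of CENPT and CENPH overlapped between the groups. CENPE also differed in which transcript was listed. ENST00000380026 had 3.48, 3.17 and 3.28 FPKM in G libraries and 0.47, 1.39 and 2.38 FPKM in A libraries, while the slightly longer ENST00000265148 had 0.06, 0.04 and 0.04 FPKM in G libraries and 2.16 and 1.06 FPKM in A replicates 1 and 2, with no estimate in A replicate 3. Only ENST00000380026 passed the filter (limma adjusted p = 0.605), and the transcripts share most of their reads. One transcript led in all 6 libraries for 20 of the 36 genes.

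The median deviation of the 36 genes from their own mean over the 6 libraries, in log2 units, was 0.07, 0.00 and 0.06 in G libraries and -0.03, -0.01 and -0.02 in A libraries. The corona genes gave 0.20, 0.10 and 0.14 in G libraries and -0.07, -0.18 and -0.14 in A libraries, with no overlap of the groups. That follows from CENPF, CENPE and KNTC1, 3 of the 5 corona genes, being separated themselves, and it is no further support. The median over all tested genes did not overlap either, at 0.01, 0.02 and 0.01 in G libraries and 0.00, -0.02 and -0.01 in A libraries. With length and GC trends removed, the corona genes gave 0.08, 0.08 and 0.06 in G libraries and -0.06, -0.11 and -0.06 in A libraries. A replicate 1, which had the highest FOXM1 value, was not the highest library for any of the 4 roles. G replicate 2 was the highest library for 2 of the 36 genes, and G replicates 1 and 3 for 11 and 10.

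Further genes of the pathway were listed by textbook role, covering other kinetochore subunits, CENP-A loading, the passenger complex with the shugoshins, and the anaphase-promoting complex with checkpoint silencing. Of these 41 genes, all tested, none passed the adjusted threshold, 24 were positive (58.5%, against 55.1% of all tested genes) with a median log2 change of 0.04 (against 0.02). At an unadjusted p under 0.05, 1 of the 41 was higher and 0 were lower, where 10.5% and 6.82% of all tested genes were. HJURP, the CENP-A chaperone, and MIS18A had log2 changes of 0.09 and 0.08. G lay wholly above A for 6 of the 41 genes, near the 15.4% of all tested genes, and wholly below A for 0, where 9.57% of all tested genes were; SGO2, INCENP, FZR1, TRIP13 and ESPL1 were among the 6. SGO2, a protector of centromeric cohesion, had 4.47, 4.06 and 4.69 FPKM in G libraries, against 4.06, 3.12 and 3.74 FPKM in A libraries (log2 change 0.22, limma adjusted p = 0.308), and G replicate 2 was almost level with A replicate 1. INCENP, the scaffold of the chromosomal passenger complex, had a log2 change of 0.18 and SGO1 of 0.19, with limma adjusted p-values of 0.322 and 0.399.

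Of the 22 genes of the checkpoint's target and its silencing, 13 were positive with a median log2 change of 0.04; 3 had G wholly above A and 0 wholly below. The 3 smallest p-values belonged to genes with lower G means. UBE2S and UBE2C, the ubiquitin-conjugating enzymes of the anaphase-promoting complex, had log2 changes of -0.37 and -0.11, and MAD2L1BP, a checkpoint-silencing factor, of -0.14, with adjusted p-values of 0.316, 0.383 and 0.374. UBE2S had 65.9, 91.9 and 90.8 FPKM in G libraries and 88.8, 114 and 117 FPKM in A libraries, where G replicates 2 and 3 overlapped A replicate 1. Of the 9 remaining kinetochore subunits, CENPB, SPAG5 and CENPX had the smallest p-values, with log2 changes of -0.18, 0.12 and -0.12, and 4 of the 9 were positive. These subunits and the 36 genes share the same libraries and the same length trend, and no difference between the lists was tested.

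In the authors' deposited table, 0 of the 36 genes are marked as significant, where 0.367% of all 58825 genes are, and 0 have a q-value under 0.05, where 0.0918% do. KNL1 (p = 0.018) and CENPF (p = 0.029) are the 2 of the 36 with a p under 0.05 in the authors' deposited table, where 1.43% of all genes have one. These shares are over all 58825 genes, and 28089 of those had no estimate in any library. The 36 genes all had estimates, so the shares are a low background for them.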

How the data were processed

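Poly(A) RNA of 6 libraries was sequenced as strand-marked read pairs, per the labels' protocols. The submitters' processing notes name cutadapt 1.9, HISAT2 2.0.4 and StringTie 1.3.4d; they also name a mouse build, but the identifiers are those of human genes, and 94.6% of the 206348 transcripts that GENCODE release 29 also lists sit at its GRCh38 coordinates, on its strand. The sources used here do not give the strand setting or annotation of the quantification, and 9 of the 36 genes overlap a gene on the opposite strand. The authors deposited FPKM values for 58825 genes and 208460 transcripts, where 0.0001 stands for no estimate. Beside them stand the authors' fold ratio, log2 fold change, p-value and q-value. The deposited log2 change is the log2 ratio of group means, G over A.

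From these, log2(FPKM + 1) was fitted with limma 3.58.1 (R 4.3.3, intensity trend), G minus A, for features that reached 1 FPKM in 3 or more of the 6 libraries; fold changes on this scale understate the change of low genes. P-values were adjusted over all tested features with the Benjamini-Hochberg method, with a threshold of 0.05. Depth was estimated from the FPKM step of 1 read pair. Length and GC trends were removed per library with splines over the most abundant transcript. Tables were handled in Python 3.11.15 with pandas 2.3.3, and the fit was tested on simulated data. The 36 genes, the other lists and the tests were chosen with earlier results of these data known. All 36 genes, FOXM1 and, of each pathway list, the 3 genes with the smallest p were named, except 1 result that is not reported here; FZR1, TRIP13, ESPL1, EPCAM, CD68, COL1A1, DCN, KRT7, KRT8, KRT18, KRT19, CDH1 and single transcripts were named after their values were seen.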

Additional observations from a re-analysis of the deposited data

How the results depend on the processing

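None of the 36 genes was called under any of 18 alternatives with limma; the lowest adjusted p was 0.0776, for CENPF with equal FPKM sums, and 22 of the 36 kept the sign of their log2 change in all 18. The count of genes called over the whole table, 14 as reported, was 1 with no filter, 5 with a filter of 0.1 FPKM, 6 with quantile normalization, 4 with no variance trend, 5 to 20 with each library left out in turn, and 54 by q-value and 844 by p-value of the authors' deposited table. By deposited p-value, 2 of the 36 and 1 of the other 41 pathway genes passed. Deviations of same-numbered libraries correlated at 0.07, 0.02 and 0.04 across genes, and those of unlike-numbered libraries at -0.06 to 0.02. Such weak correlations cannot show whether the replicate numbers pair the samples. With the replicate number as a block 0 genes were called, with or without length and GC trends removed; in limma with the block alone 9.56% were higher and 7.23% lower at an unadjusted p under 0.05. Equal FPKM sums moved the median of all genes to 0.11 and that of the 36 to 0.13, with 27 of the 36 positive, and gave log2 changes of 0.016 for CENPH, 0.0563 for CENPW, 0.0527 for MIS12, 0.0615 for ZWILCH and 0.0191 for ZWINT, which were negative as reported. Median-ratio factors and quantile normalization each left 19 of the 36 positive. Median-ratio factors gave -0.0071 for BUB3, -0.0020 for CENPL and -0.0006 for CENPP, and quantile normalization gave -0.0374 for CENPL, -0.0345 for CENPO and -0.041 for CENPP. With length and GC trends removed, with or without the block, CENPM was at 0.0036, CENPO at -0.0065 and CENPP at -0.10. With a library left out, log2 changes ran from -0.0156 to 0.0682 for BUB3, -0.15 to 0.0427 for CENPH, -0.33 to 0.0009 for CENPK, -0.0715 to 0.11 for CENPL, -0.27 to 0.31 for CENPO, -0.0455 to 0.0601 for CENPP, -0.23 to 0.0005 for CENPQ, -0.0765 to 0.0169 for CENPW, -0.10 to 0.0076 for MIS12, -0.24 to 0.31 for SKA1, -0.0797 to 0.24 for SPC25, -0.0469 to 0.0173 for ZWILCH and -0.20 to 0.0235 for ZWINT. The causes of these sign changes were not tested. Between 5 and 8 of the 36 were higher in G at an unadjusted p under 0.05 with a library left out, and 1 was lower without A replicate 1, where 6.62% to 12.9% of all tested genes were higher and 4.47% to 8.33% lower. FOXM1 ran from -0.19 to 0.44.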
